A study of Mus musculus and Homo sapiens
Mus musculus with 12 samples.

Results

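Homeobox genes encode transcription factors, and 103 of them were followed here across the kinds of nuclei in mouse brain. They were chosen by gene symbol alone, with no measured value used, and comprise the Hox clusters and the Dlx, Lhx, Isl, Nkx, Otx, Pou, Meis, Pbx, Irx, Cux, Satb, Onecut and Zfhx families and the family of Six3. They were 103 of the 34496 genes with at least 1 count in any of 7 brain libraries made by snHH-seq, a droplet method that reads total RNA of single nuclei from random primers. A count is a unique fragment identifier (UFI), that is, 1 tagged cDNA fragment, so a long transcript can give several UFIs. All nuclei were labelled as brain of wild-type C57BL/6J mice, described as males of 6–8 weeks in the study's methods, with no deletion, transgene or drug in any group. Nuclei were isolated from frozen or from fresh tissue, and were reverse transcribed with primers that carried an additional cell barcode (preindex) or did not (no preindex). There were 2 frozen no preindex libraries, 2 frozen preindex libraries, 2 fresh no preindex libraries and 1 fresh preindex library. The labels name no brain region and do not tie libraries to animals, so genes are described by kind of nucleus, and every p-value measures only the spread between these libraries, which may be technical.

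The homeobox codes for the homeodomain, a helical fold that binds DNA through a recognition helix laid in the major groove. Homeodomain factors set up regional identity along the embryonic brain and spinal cord, and many stay on in mature neurons, where combinations of them mark and help maintain neuron types. Hox genes are known for patterning the hindbrain, spinal cord and trunk and are largely silent in the forebrain, Cux and Satb genes for layers of the cerebral cortex, Dlx and Lhx6 for GABA interneurons, and Meis and Pbx genes for encoding partners that bind DNA beside other homeodomain factors.

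The libraries held 11198 nuclei, from 700 to 3100 in each, with 8605214 to 42439731 UFIs and a median of 9012 to 27543 UFIs per nucleus. The fresh no preindex libraries were deepest per nucleus, at 21127 and 27543, and the preindex libraries lay between 9012 and 14017. Clustering without the homeobox genes gave 29 clusters, and dividing 3 that joined unlike nuclei gave 52 kinds of at least 20 nuclei. A kind was given a cell type name ending in "-like" only from marker genes that include no homeobox gene listed here, and otherwise carries the symbols of its leading genes. Against the brain label, 471 nuclei, 261 and 210 in the frozen preindex libraries and 0 in the others, carried kidney markers, and 20 nuclei of the fresh preindex library carried hepatocyte markers. Neuron markers summed to 70.8 UFIs per 10000 in the oligodendrocyte-like and 127 in the astrocyte-like nuclei but to 0.601 in the kidney-like nuclei. The astrocyte-like sum lay among those of neuron kinds, such as 108 in D1 medium spiny neuron-like and 154 in Rorb cortical-like nuclei. All levels in glial kinds below carry that limit, and the source of the signal was not tested. In 4 of the 7 libraries the treatment label contradicts the title on the preindex; titles were used, and the barcode lengths in the files, 40 bases in the preindex and 30 bases in the other libraries, go with them.

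What the families share is the recognition helix. The lines below give 24 bases of the homeobox of the genes on which the results turn, coding for homeodomain positions 48 to 55, with the codon of position 50 in capitals because the residue there is known to help choose the DNA sequence that is bound. They were read from GRCm38 with the GENCODE vM21 annotation, 5′ to 3′ on the coding strand, and all lie in coding exons; coordinates of those that cross an intron span it.
Hoxb3 (chr11:96345809-96345832, +, exon 4 of 4): tggttcCAGaaccgtcgcatgaag
Hoxb6 (chr11:96300830-96300853, +, exon 3 of 3): tggtttCAGaaccggcgcatgaag
Hoxc4 (chr15:103035804-103035827, +, exon 2 of 2): tggttcCAAaaccgtcgtatgaaa
Dlx1 (chr2:71532273-71532296, +, exon 3 of 3): tggttcCAGaacaaacgctccaag
Lhx6 (chr2:36091110-36091133, −, exon 8 of 10): tggtttCAAaactgccgagcgcgt
Lhx8 (chr3:154311697-154311720, −, exon 8 of 9): tggtttCAGaactgcagggcccgc
Isl1 (chr13:116303106-116303129, −, exon 4 of 6): tggtttCAAaacaagcggtgcaag
Nkx2-2 (chr2:147184271-147184294, −, exon 2 of 2): tggttcCAGaaccatcgctacaag
Six3 (chr17:85621999-85622022, +, exon 1 of 3): tggtttAAGaaccggcgacagcgc
Otx2 (chr14:48659300-48659323, −, exon 5 of 5): tggtttAAGaatcgaagagctaag
Meis1 (chr11:18885630-18905690, −, exons 9 and 10 of 12): tggtttATTaatgcccggagaaga
Meis2 (chr2:115868782-115921673, −, exons 9 and 10 of 12): tggtttATCaatgccagaagaaga
Pbx3 (chr2:34178310-34178333, −, exon 6 of 9): tggtttGGCaacaaacgaatcagg
Cux1 (chr5:136275460-136279446, −, exons 23 and 24): tggttcCATaattacaggtctcgg
Cux2 (chr5:121861375-121864663, −, exons 22 and 23): tggttcCACaactacaggtccagg
A window was counted in 96 of the 103 genes, none of them a Satb or Onecut gene. Its capital codon was CAG in 55 and CAA in 7, the Hox, Dlx, Lhx, Isl and Nkx genes shown among them, and AAG in 7, Six3 and Otx2 among them. Each of the 3 Meis genes had ATT or ATC and each of the 4 Pbx genes a codon beginning with GG.

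The 103 genes gave 605682 UFIs, and a few families gave nearly all of them. The 4 Pbx genes held 42.8% of these UFIs, the 2 Cux genes 16.7%, the 3 Meis genes 11.7%, the 3 Zfhx genes 9.61%, the 13 Pou genes 8.82% and the 2 Satb genes 7.22%. The 8 Lhx genes held 1.06% and the 6 Dlx genes 0.257%, and 28 genes had under 10 UFIs in all and are not described further. Reads in introns were counted, so a longer gene offers more places to be counted, and genes were set beside each other per 10 kb of gene span. On that scale Zfhx2 gave 3905 UFIs, Meis2 (chr2:115863064-116065839) 3127, Cux2 (chr5:121856366-122050102) 2125 and Cux1 1887, whereas Zfhx3 (chr8:107942644-108961630), which spans 1019 kb, gave 296. All later levels are UFIs of a gene per 10000 UFIs of the same nuclei, and are compared only within a gene. Summed over the 103 genes, libraries ranged from 2950 to 3548 counts per 1000000 UFIs (CPM), with the 2 frozen no preindex libraries lowest at 2950 and 3056.

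The level of most of these genes was uneven across kinds of nuclei. Of the 49 with at least 100 UFIs, 37, or 75.5%, had in their highest of the 28 clusters of at least 20 nuclei at least 5 times the median of the other clusters. The same held for 35.9% of all 16161 genes with at least 100 UFIs, a share not matched for the number of UFIs. Clusters come from the same nuclei, so levels by kind are a description and were not tested. The heat map sets genes and kinds in a fixed order, by cortex, striatum, interneurons, thalamus, oligodendrocyte lineage and kidney-like nuclei. Its blocks follow in part from that order. Some genes were high in kinds of different groups, such as Cux1 in Oprk1/Fap and in kidney-like nuclei.

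**Figure D1:**
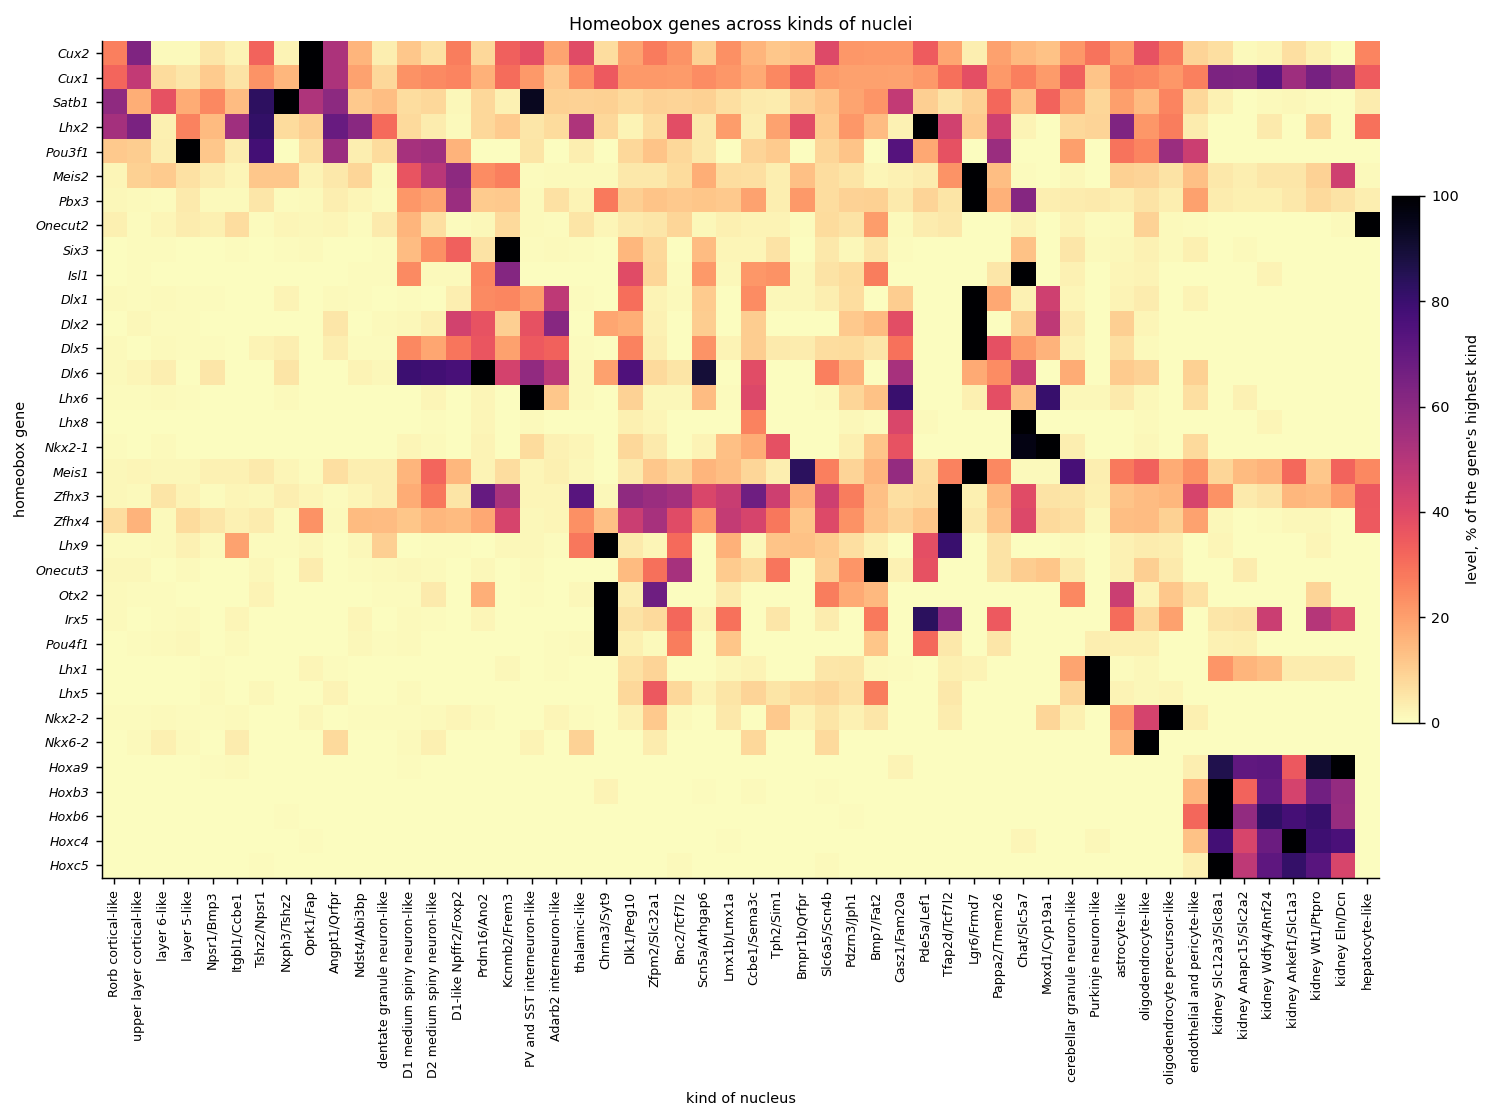
Level of homeobox genes (rows) in each kind of nucleus (columns), as a percentage of the gene's highest kind, pooled over the 7 brain libraries. Cux2 is high in the Oprk1/Fap, upper layer-like and Angpt1/Qrfpr columns, and Meis2 and Pbx3 in the Lgr6/Frmd7 and D1-like Npffr2/Foxp2 columns. Lhx6 is high in the PV and SST interneuron-like, Moxd1/Cyp19a1 and Casz1/Fam20a columns, and the Hox genes in the kidney-like columns.

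Among cortical-like nuclei, Cux1 and Cux2 were higher in the upper layer-like and Rorb kinds than in the layer 5-like and layer 6-like kinds. Cux2, known as a gene of upper layers, had 5.00, 6.20 and 7.15 as lowest, median and highest of the 7 libraries in upper layer-like nuclei, with a mean of 6.26 ± 0.733 (SD, n = 7). The same gene was at 2.73 ± 0.358 in Rorb cortical-like nuclei and at 0.105 ± 0.0593 and 0.122 ± 0.0625 in layer 6-like and layer 5-like nuclei (SD, n = 7). Cux2 was also at 3.97 ± 0.27 in the PV and SST interneuron-like nuclei, where the libraries ran from 3.60 to 4.37, so its level was not limited to glutamatergic kinds. Its relative Cux1 was likewise higher on average in upper layers, with 7.04 ± 1.34 in upper layer-like and 4.70 ± 1.06 in Rorb cortical-like nuclei, and 2.92 ± 0.191 in PV and SST interneuron-like nuclei. It was at 1.06 ± 0.162 in layer 6-like and 0.689 ± 0.252 in layer 5-like nuclei (SD, n = 7). The name layer 5-like is uncertain. Its leading genes include Npr3, a marker used for layer 5, but also Fibcd1, a marker used for hippocampal pyramidal neurons. Whether the kind holds hippocampal nuclei was not tested.

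A small kind led by Oprk1 and Fap, 98 nuclei with Slc17a7 at 2.29 and Gad2 at 0.0377 per 10000, stood above the upper layer-like nuclei in both genes. In the 4 libraries with at least 10 of its nuclei, Cux1 ran from 14.1 to 14.7, with a mean of 14.4 ± 0.279 (SD, n = 4). There Cux2 was at 10.6 ± 1.78. None of these Cux1 or Cux2 values overlapped the libraries of the upper layer-like nuclei. Satb1, which encodes a chromatin organiser, followed another order. It had 1.55, 2.53 and 3.11 as lowest, median and highest library in the PV and SST interneuron-like nuclei, with a mean of 2.45 ± 0.531, and it stood at 2.49 ± 0.297 (n = 4) in the Nxph3/Tshz2 nuclei and 2.27 ± 0.246 (n = 6) in the Tshz2/Npsr1 nuclei, 3 kinds that did not differ beyond their spread. Pou3f1, known from subcerebral projection neurons, was highest of the 4 cortical-like kinds in layer 5-like nuclei, at 0.0872 ± 0.0249, with the limit on that name given above. Lhx2, a LIM-homeodomain gene that selects cortical fate, was at 0.423 ± 0.0538 in upper layer-like and 0.197 ± 0.0422 in dentate granule-like nuclei.

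In striatal-like nuclei, Onecut2, Meis2 and Pbx3 stood above their medians over the other kinds, and Isl1 separated the D1 from the D2 kind. The ratios to those medians were 9.03, 6.96 and 4.41 in D1 and 3.91, 9.28 and 3.83 in D2 medium spiny neuron-like nuclei. Meis2, a TALE-homeodomain gene of the striatal lineage, had 11.9, 16.2 and 17.5 as lowest, median and highest library in D2 medium spiny neuron-like nuclei and 9.09, 12.8 and 13.99 in the D1 kind, with means of 15.5 ± 2.26 and 12.1 ± 1.65 (SD, n = 7). It was at 0.222 ± 0.161 in PV and SST interneuron-like nuclei. Pbx3, which encodes a TALE partner, was at 5.17 ± 0.851 in the D1 kind and 4.33 ± 0.879 in the D2 kind, and at 0.319 ± 0.0798 in Rorb cortical-like nuclei. Pooled, Pbx3 was at 5.40 and 4.69 in the D1 and D2 kinds. Other kinds were alike, with 5.29 in Bmpr1b/Qrfpr, 4.93 in endothelial and pericyte-like and 4.84 in Ccbe1/Sema3c nuclei. Both kinds come from the same 7 libraries, whose values were set side by side as ranges and not compared within each library. By these ranges, neither Meis2 nor Pbx3 separated D1 from D2 beyond the overlap of the libraries. Isl1, a LIM-homeodomain gene of D1 neurons and of cholinergic neurons, did: all 7 libraries lay from 0.103 to 0.198 in the D1 kind (0.147 ± 0.0309) and from 0 to 0.0270 in the D2 kind, which held 5 of its UFIs in all. Onecut2, a cut-homeodomain gene of neuronal differentiation, was at 1.11 ± 0.255 in D1 and 0.448 ± 0.0519 in D2, with no overlap (0.848 to 1.49 against 0.380 to 0.530). Six3, a gene of the D2 lineage, ran the other way, with 0.335 ± 0.0999 in D2 and 0.201 ± 0.0743 in D1, and with overlapping libraries.

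Further kinds with Gad2 differed in these genes. A D1-like kind led by Npffr2 and Foxp2 (118 nuclei, Gad2 at 3.02) had Meis2 at 20.3 ± 2.99 and Pbx3 at 14.1 ± 2.74 (SD, n = 5). Its Pbx3 libraries, from 10.5 to 17.8, lay wholly above those of both medium spiny kinds. The 175 Prdm16/Ano2 nuclei (Gad2 at 2.69), of which the frozen no preindex libraries held 0, had lower levels than both medium spiny kinds on average, with Meis2 at 8.47 ± 1.53 and Pbx3 at 3.00 ± 1.32, and Zfhx3 at 7.22 ± 1.18 (SD, n = 5). The highest pooled levels stood in a kind led by Lgr6 and Frmd7, with 39 nuclei, 28 of them from the fresh preindex library, and Gad2 at 2.71. In it Meis2 was at 33.6, Pbx3 at 25.01, Meis1 at 3.80 and Dlx1 at 0.603, and all 103 genes summed to 148 per 10000, against 15.4 in dentate granule-like nuclei. With so few nuclei this level rests mainly on 1 library, where Meis2 was at 30.5 and Pbx3 at 29.3. Six3 was highest in the 52 Kcnmb2/Frem3 nuclei (Gad2 at 5.86), at 1.27 pooled and between 0.573 and 1.81 in the 6 libraries that held such nuclei, 2 to 21 in each.

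The Dlx genes, which drive the GABA fate in the ventral forebrain, were low in count and split between kinds. Dlx1 was highest of the main kinds in Adarb2 interneuron-like nuclei, with libraries at 0.160, 0.277 and 0.488 (lowest, median, highest) and a mean of 0.310 ± 0.104, against 0.115 ± 0.0385 in PV and SST interneuron-like nuclei and 3 and 1 UFIs in D1 and D2 medium spiny neuron-like nuclei. Dlx6 instead was alike in D1, D2 and PV and SST interneuron-like nuclei, at 0.0965 ± 0.0207, 0.108 ± 0.0279 and 0.0741 ± 0.0345, within their spread. The Dlx6 locus overlaps an antisense transcript, Dlx6os1, and the strand setting of the counting is not stated, so reads of the pair could not be told apart. The same limit holds for Dlx1, whose antisense transcript Dlx1as was among the leading genes of the Adarb2 interneuron-like nuclei. Lhx6, the LIM-homeodomain gene of interneurons from the medial ganglionic eminence, put 862 of its 1234 UFIs, 69.9%, into the PV and SST interneuron-like nuclei. It was at 0.576, 0.807 and 0.892 there (mean 0.770 ± 0.108, n = 7), at 0.0892 ± 0.0691 in Adarb2 interneuron-like nuclei with no overlap, and at 7 UFIs in all Rorb cortical-like nuclei. Smaller kinds with Gad2 held Lhx6 as well. Its pooled level was 0.631 in the 27 Moxd1/Cyp19a1, 0.628 in the 59 Casz1/Fam20a and 0.316 in the 84 Ccbe1/Sema3c nuclei, beside 0.782 in PV and SST interneuron-like nuclei. Lhx8, the close relative of Lhx6 for cholinergic fate, was at 0.0191 in PV and SST interneuron-like nuclei. Beside Lhx6 it stood at 0.704 pooled in the Casz1/Fam20a and 0.446 in the Ccbe1/Sema3c nuclei. Lhx8 was highest, at 1.70, in 29 Chat/Slc5a7 nuclei, which held 31.5% of its UFIs. Chat, which encodes the enzyme that makes acetylcholine, stood at 5.34 in those nuclei. The 7 libraries gave Lhx8 from 0.716 to 2.53 there, and Isl1 from 0.283 to 1.08, on 1 to 7 such nuclei in each. Nkx2-1, the selector of the medial ganglionic eminence, was at 0.160 in the same kind but on 11 UFIs only.

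In thalamic-like and several other subcortical-like kinds, the large zinc-finger homeobox gene Zfhx3 stood well above its median over the other kinds. In thalamic-like nuclei its ratio to that median was 5.52, beside 22.6 for Lhx9, and Zfhx4 was not among the 4 highest ratios. Zfhx3 had 6.41, 7.35 and 8.61 as lowest, median and highest library in thalamic-like nuclei (7.36 ± 0.68, n = 7), 6.44 ± 0.774 (n = 6) in Dlk1/Peg10 nuclei and 10.5 in the 41 Tfap2d/Tcf7l2 nuclei, against 0.149 ± 0.113 in Rorb cortical-like nuclei. Zfhx4 was lower than its own top in the thalamus, at 1.44 ± 0.281, with 3.22 ± 0.795 in Zfpm2/Slc32a1 nuclei and 6.22 in the Tfap2d/Tcf7l2 nuclei. The third gene of the family, Zfhx2, was flat: 40 of the 52 kinds were at 50% or more of its highest kind. Lhx9, a LIM-homeodomain gene of the thalamus and dorsal midbrain, was at 0.285 ± 0.0825 in thalamic-like nuclei (0.159 to 0.369), 0.884 in Tfap2d/Tcf7l2 and 1.10 in the 31 Chrna3/Syt9 nuclei. Those Chrna3/Syt9 nuclei, with Slc17a6 at 1.54 and Chat at 1.18, also held the highest pooled levels of Pou4f1 (0.333, 13 UFIs), Otx2 (0.205, 8 UFIs) and Irx5 (0.179, 7 UFIs). Pou4f1 is the gene of habenular and sensory neurons, and its level there rested on too few UFIs to compare libraries. Onecut3 was at 0.281 in the Bmp7/Fat2 nuclei, where Onecut2 was at 1.39. The highest level of Onecut2, 6.74 on 71 UFIs, lay outside the neural kinds, in the 20 hepatocyte-like nuclei of the fresh preindex library.

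In cerebellar-like nuclei, the genes were Lhx1, Lhx5 and Meis1. Lhx1 and Lhx5 encode LIM-homeodomain factors of Purkinje cells. The 30 Purkinje-like nuclei held 90 of the 315 UFIs of Lhx1, 28.6%, at 0.998 per 10000, and libraries with such nuclei gave 1.03, 1.07, 1.13 and 0.676. They also held 30 of the 144 UFIs of Lhx5, at 0.333. Of these nuclei 13 and 12 came from the frozen no preindex libraries, 1 and 4 from the fresh no preindex libraries and 0 from the preindex libraries. Meis1 was at 2.93 in the 148 cerebellar granule-like nuclei, with 3.16 and 2.73 in the frozen and 3.56 and 3.21 in the fresh no preindex libraries. The 3 preindex libraries had 10, 5 and 5 such nuclei and 0 UFIs of Meis1 in them. The name of this kind is uncertain, since it held Gad2 at 1.22 beside Slc17a7 at 2.44, and whether it is mixed was not tested. Meis1 was not limited to it, with 3.17 pooled in Bmpr1b/Qrfpr nuclei. Among glial kinds, Nkx2-2, a gene of the oligodendrocyte lineage, was at 0.460 ± 0.176 (n = 5, from 0.322 to 0.718) in precursor-like and 0.173 ± 0.0755 (n = 7, from 0.0762 to 0.272) in oligodendrocyte-like nuclei, with no overlap, and at 4 UFIs in all Rorb cortical-like nuclei. Nkx6-2, which acts in myelinating oligodendrocytes, put 60.3% of its 63 UFIs into the oligodendrocyte-like nuclei, at 0.0951 ± 0.033. Meis1 stood at 1.30 ± 0.383 in oligodendrocyte-like and 0.958 ± 0.301 in astrocyte-like nuclei.

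Pou6f1, like Zfhx2, was broad, with 31 of 52 kinds at 50% or more of its highest.

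The patterns of some pairs were close across the 52 kinds. Among genes with at least 300 UFIs, the likeness of Dlx1 and Dlx5 was highest by rank among the pairs given here, with a Spearman rho of 0.82 and a Pearson r of 0.86. It was 0.66 and 0.83 for Zfhx3 and Zfhx4, 0.68 and 0.54 for Isl1 and Six3, 0.49 and 0.68 for Lhx8 and Isl1, 0.40 and 0.72 for Meis2 and Pbx3, and 0.50 and 0.97 for Hoxb3 and Hoxb6. The kinds come from the same 7 libraries and differ in nuclei and depth, so these values describe likeness only.

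Most UFIs of the 30 Hox genes lay outside the neural nuclei. Of their 2269 UFIs, 1993, or 87.8%, lay in the 471 kidney-like nuclei, which made up 4.21% of all nuclei. Summed Hox was at 4.42 and 4.68 per 10000 in the kidney-like nuclei of the 2 frozen preindex libraries. In all nuclei other than kidney-, hepatocyte- and vascular-like ones it ran from 0.00659 to 0.0184 over the 7 libraries, and the frozen preindex libraries, at 0.0112 and 0.00749, lay inside that range. A total of 197 UFIs remained there, 50 of them of Hoxb3. Endothelial and pericyte-like nuclei had 79 Hox UFIs, at 4.82 and 2.92 per 10000 in the frozen preindex libraries and 0 to 0.276 in the other 5. Those are the libraries with kidney-like nuclei, and the organ of these vascular nuclei was not tested.

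**Figure D2:**
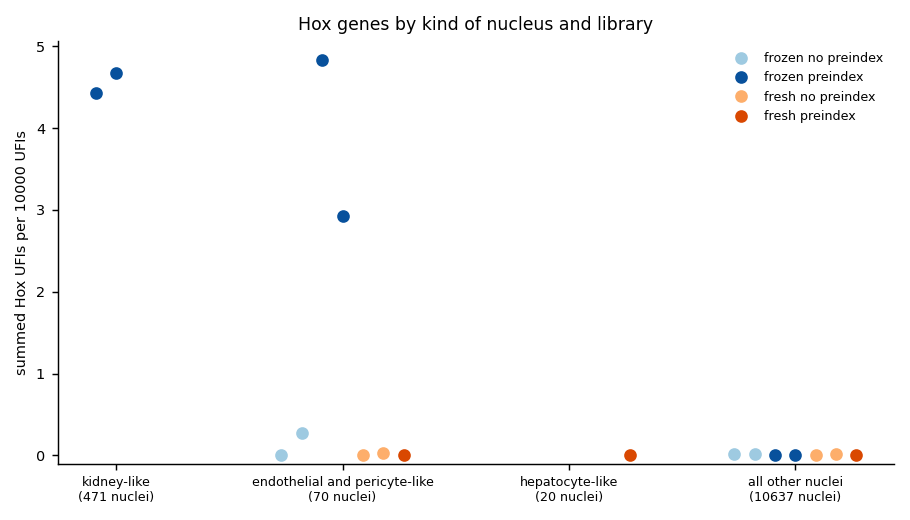
Summed UFIs of the 30 Hox genes per 10000 UFIs in 4 sets of nuclei, 1 point per library. Kidney-like nuclei were found only in the 2 frozen preindex libraries, at 4.42 and 4.68, and nuclei that were neither kidney-, vascular- nor hepatocyte-like were at 0.0184 or below in every library, while vascular-like nuclei reached 4.82 and 2.92 in the frozen preindex libraries.

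Within the kidney-like nuclei, genes of the Hoxb and Hoxc clusters gave the most UFIs, without scaling by gene span. Hoxb6 had 387 of its 424 UFIs there, Hoxb3 386 of 452, Hoxc4 270 of 296, Hoxc5 257 of 278, Hoxa9 122 of 131 and Hoxb4 113 of 129. Per 10 kb of gene span and over all nuclei, Hoxb6 gave 466 UFIs, Hoxb4 383, Hoxb3 184, Hoxc4 165, Hoxa9 164 and Hoxc5 55.6. Among the parts of the kidney-like nuclei the summed Hox level was lowest at 3.02 and highest at 5.81, in the Slc12a3/Slc8a1 part. The leading gene of that part encodes the sodium-chloride cotransporter of the distal tubule. There Hoxb3 was at 1.50 and 1.15, Hoxb6 at 0.963 and 1.12 and Hoxc5 at 0.840 and 0.799 in the 2 libraries. In the Wt1/Ptpro part, named by genes of podocytes, Hoxb6 was between 0.825 and 0.893, with Hoxc4 at 0.704 pooled. Genes of a cluster lie next to each other and share transcripts, so reads may be split between neighbours. Other homeobox genes were in these nuclei too: the Wdfy4/Rnf24 part of 82 nuclei had Cux1 at 10.1, above every library of the upper layer-like nuclei, and Lhx1 was at 0.219 in the Slc12a3/Slc8a1 part. Genes other than Hox summed to 42.3 in kidney-like and 33.1 in the remaining nuclei.

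The first comparison asked what the preindex primer changed. All UFIs of each library were summed, and storage and primer were fitted together by edgeR's quasi-likelihood test with Benjamini-Hochberg adjustment over all 19299 genes tested; a positive log2 fold change is higher with the preindex primer. In such sums fewer nuclei of a kind and less RNA per nucleus cannot be told apart. Of the 62 homeobox genes that passed the filter on low counts, 11 rose and 6 fell, or 27.4%, against 15.8% of all genes called. Without kidney-like and hepatocyte-like nuclei, 7 of 51 rose and 7 fell, or 27.5%, against 19.4% of all genes. Among the 11 over all nuclei were 7 Hox genes, which passed that filter through the frozen preindex libraries and are the genes of the kidney-like nuclei. For these 7 the test cannot tell the primer from the share of kidney-like nuclei. Hoxb6 was at 7.07 and 7.23 CPM in the 2 frozen preindex libraries and at 0 to 0.136 in the other 5, the fresh preindex library included at 0.0623. Its log2 fold change was 4.69 ± 0.77 (SE, edgeR adjusted p = 0.00893), and without kidney-like and hepatocyte-like nuclei 1.77 (edgeR adjusted p = 0.0912), while the other 6 then fell under the filter. Hoxa7, Hoxb5, Hoxb9, Hoxa10, Hoxc5 and Hoxc4 had log2 fold changes between 2.96 and 4.17. Each of the 7 Hox calls was lost without frozen no preindex library 2 and without frozen preindex library 2.

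**Figure D3:**
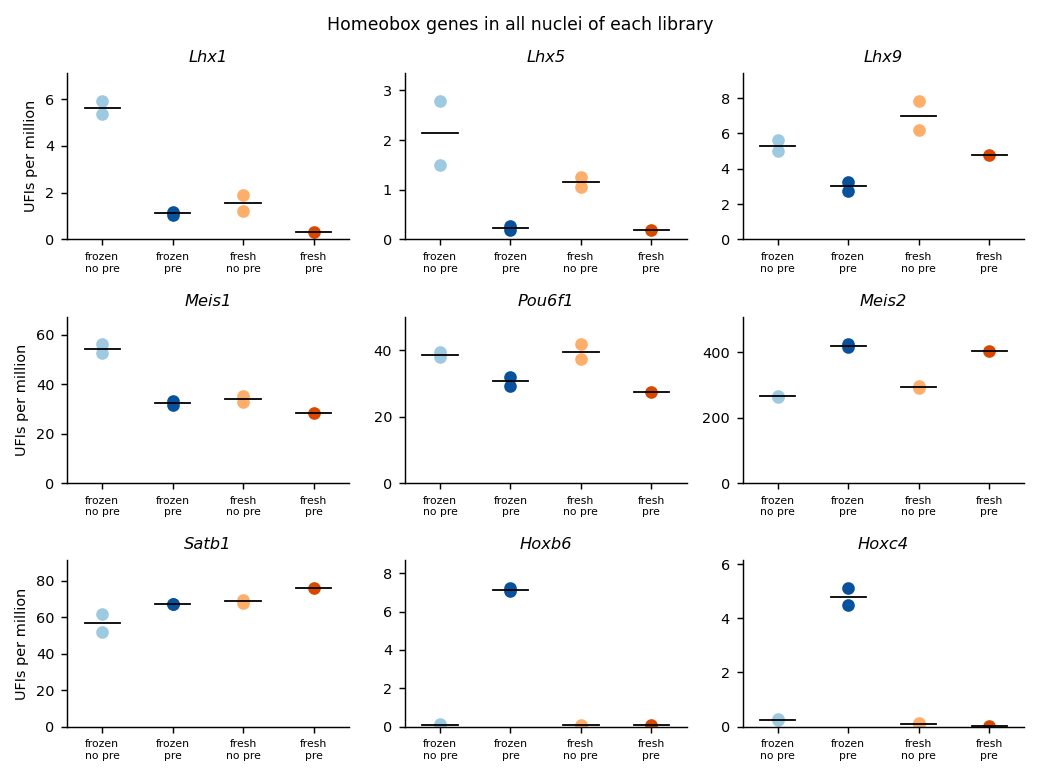
CPM of 9 homeobox genes in the 7 brain libraries, by group, with 1 point per library and a line at the group mean. Meis2 is higher in all 3 preindex libraries, Lhx1 and Pou6f1 lower, and Hoxb6 is high in the 2 frozen preindex libraries only.

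Meis2 and Satb1 were among the other 4 that rose. Meis2 was at 264 and 268 CPM in the frozen and 291 and 297 in the fresh no preindex libraries, and at 424, 415 and 406 in the preindex libraries. These groups did not overlap, with a log2 fold change of 0.66 ± 0.04 (SE, edgeR adjusted p = 0.000277). Satb1 was at 52.1 and 61.5 in the frozen and 67.8 and 69.4 in the fresh no preindex libraries, and at 67.1, 67.4 and 75.9 with the preindex. These libraries overlapped, and it rose by 0.28 ± 0.05 (adjusted p = 0.0139, edgeR), a call lost without frozen preindex library 2.

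Among the 6 that fell were Lhx5, Lhx1, Lhx9, Meis1 and Pou6f1. Lhx1 was at 5.93 and 5.36 CPM in the frozen no preindex, 1.21 and 1.89 in the fresh no preindex, 1.06 and 1.16 in the frozen preindex and 0.311 in the fresh preindex library. Its log2 fold change was -2.26 ± 0.22 (SE, edgeR adjusted p = 0.00169). All 30 Purkinje-like nuclei came from no preindex libraries, and without cerebellar granule-like and Purkinje-like nuclei the change was -0.90 (edgeR adjusted p = 0.116). Meis1 moved likewise from -0.46 ± 0.12 (edgeR adjusted p = 0.0363) to -0.15 (edgeR adjusted p = 0.316), and lost the call without each of 5 libraries in turn. Lhx5 was at -2.89 ± 0.36 (edgeR adjusted p = 0.00389), and at -2.16 without those nuclei (edgeR adjusted p = 0.00982). Pou6f1 was at 39.5, 37.9, 37.3 and 41.8 CPM without and 32.1, 29.2 and 27.4 with the preindex, -0.33 ± 0.07 (edgeR adjusted p = 0.0172), with no overlap. Lhx1, Lhx5 and Meis2 kept their calls when any 1 library was left out. Of the other genes of the named families, Cux1 (0.22), Cux2 (0.11), Pbx3 (0.32), Pbx4 (0.03), Pbx2 (-0.22), Meis3 (-0.39), Zfhx2 (-0.02), Zfhx3 (-0.08) and Zfhx4 (-0.13) did not pass.

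**Figure D4:**
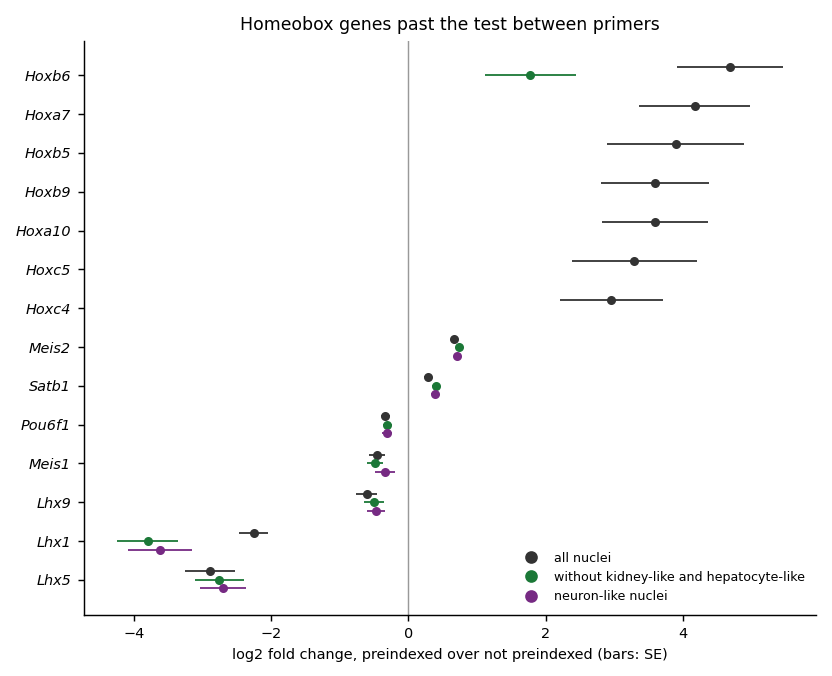
Log2 fold change with the preindex primer (positive is higher) for 14 of the 17 homeobox genes called over all nuclei, with SE bars, over all nuclei, without kidney-like and hepatocyte-like nuclei, and over neuron-like nuclei. Meis2 keeps nearly the same value in all 3, and most Hox genes have a value over all nuclei only.

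Restricting the sums to the 9925 neuron-like nuclei left Meis2 and Satb1 higher and Lhx1, Lhx5 and Lhx9 lower. The 30 Purkinje-like nuclei, all from no preindex libraries, stay in this set. They held 90 of the 315 UFIs of Lhx1 and 30 of the 144 of Lhx5. The neuron-like sums were not repeated without them, so the part of those nuclei in these 2 changes was not tested here. Over all nuclei, as given above, Lhx5 kept its call without cerebellar granule-like and Purkinje-like nuclei and Lhx1 did not. Shares of other kinds differed too. The 41 Tfap2d/Tcf7l2 nuclei, where Lhx9 was at 0.884, numbered 9 and 7 in the frozen no preindex and 0 and 0 in the frozen preindex libraries. The fresh libraries held 10 and 7 of them without and 8 with the preindex. The part of such shares in the other calls of these sums was not tested. Of 49 homeobox genes tested, 7 rose and 6 fell, against 19.6% of all genes called. Meis2 rose by 0.71 ± 0.04 (SE, edgeR adjusted p = 1.36e-05) and Satb1 by 0.39 ± 0.06 (edgeR adjusted p = 0.00179). Pbx3 joined them at 0.35 ± 0.08 (edgeR adjusted p = 0.0120), as did Pou2f1 at 0.19 and Lhx6 at 0.47 ± 0.15 (edgeR adjusted p = 0.0488). Lhx1 was at -3.62 ± 0.47 (edgeR adjusted p = 0.000674), Lhx5 at -2.70 ± 0.34, Irx2 at -1.52 ± 0.46 (edgeR adjusted p = 0.0400), Lhx9 at -0.47 and Pou6f1 at -0.31. Irx2 and Lhx9 each lost the call without each of 5 libraries in turn and Lhx6 without each of 6, and Pbx3 fell to 0.18 without fresh preindex library 1, which ended its call. Of the 30 Hox genes only Hoxb3 passed the filter here, and it was not called, at -1.61 (edgeR adjusted p = 0.0624). The median over the 49 genes was -0.19, beside -0.04 over all genes tested.

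Storage gave almost no calls. Over all nuclei 1 of 62 homeobox genes rose in frozen tissue and 0 fell, against 0.207% of all genes called. That gene was Lhx1, at 1.85 ± 0.21 (SE, edgeR adjusted p = 0.0243), whose frozen no preindex libraries hold most of the Purkinje-like nuclei, and without cerebellar nuclei it was at 1.11 (edgeR adjusted p = 0.227). The call was also lost without each of 5 libraries in turn. In neuron-like nuclei 0 of 49 were called by edgeR and 0 by DESeq2, against 0.515% of all genes, and 10 had an unadjusted p under 0.05 by edgeR. Lhx8 was at 0.70 in that comparison (edgeR adjusted p = 0.117).

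The last comparison took each of 13 clusters with at least 20 nuclei in every library on its own, so that shares of kinds matter less. Here 305 tests of 46 homeobox genes gave 11 rises and 15 falls with the preindex primer, or 8.52%, against 2.99% over all genes and clusters. The calls fell on 11 genes. Several genes rose in kinds where they were high. Pbx3 rose in D1 medium spiny neuron-like nuclei by 0.53 ± 0.10 (SE, edgeR adjusted p = 0.00502), from 4.40 to 4.61 without to 5.48 to 6.66 with the preindex, and in the D2 kind by 0.63 ± 0.12 (edgeR adjusted p = 0.00390). Meis2 in the D2 kind was at 13.1, 11.9, 15.3 and 16.2 without and 17.5, 17.3 and 17.5 with the preindex, 0.49 ± 0.10 (edgeR adjusted p = 0.00534).

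Falls were called mostly where a gene was scarce. Meis1 in dentate granule-like nuclei was at 0.354, 0.298, 0.137 and 0.189 without and 0.0126, 0 and 0.0197 with the preindex, -4.20 ± 0.61 (SE, edgeR adjusted p = 0.000405), and it fell also in the Npsr1/Bmp3 nuclei (-3.61 ± 0.68) and Rorb cortical-like nuclei (-2.20 ± 0.41, a call lost without frozen no preindex library 2). Cux2 in Npsr1/Bmp3 nuclei was at 0.498, 0.865, 1.18 and 0.726 without and 0.115, 0.0116 and 0.152 with the preindex, -2.87 ± 0.36 (edgeR adjusted p = 0.000126), and in dentate granule-like nuclei it fell by 2.22 on the log2 scale, a call lost without the fresh preindex library. In upper layer-like nuclei, by contrast, Cux2 rose by 0.38 ± 0.10 (edgeR adjusted p = 0.0331). Meis2 in thalamic-like nuclei (-2.12 ± 0.52, edgeR adjusted p = 0.0401) lost the call without each of 5 libraries in turn, and was -1.02 without frozen no preindex library 2, which alone stood at 1.29 per 10000. Of the 10 calls in clusters where the gene was above its level over all nuclei, 7 were rises and 3 falls. Of the 16 in clusters where it was below, 4 were rises and 12 falls. The median over the 141 tests above was 0.08 and over the 164 below -0.13. The same split was not made over all genes, so it is not shown to be particular to the homeobox genes. The no preindex libraries hold fewer nuclei, and the fresh ones are the deepest per nucleus; the part of depth, of mixed nuclei and of RNA from other nuclei in these falls was not tested.

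**Figure D5:**
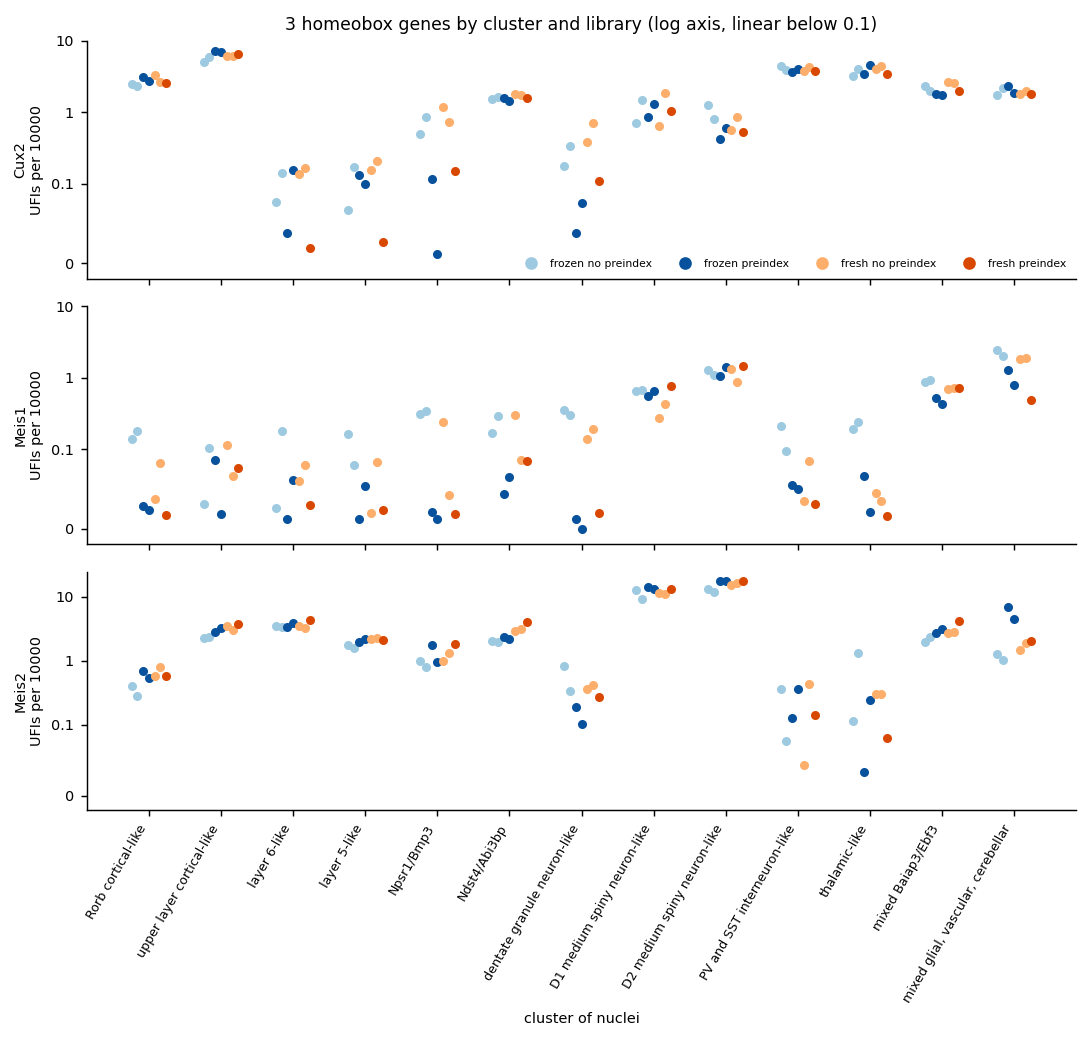
UFIs per 10000 of Cux2, Meis1 and Meis2 in 13 clusters, 1 point per library coloured by group, on a log axis that is linear below 0.1. In Npsr1/Bmp3 and dentate granule-like nuclei the no preindex points of Cux2 and Meis1 lie above the preindex points, and in upper layer-like nuclei for Cux2 and D2 medium spiny neuron-like nuclei for Meis2 they lie below.

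By storage, 1 of these 305 tests rose and 1 fell, against 0.155% over all genes. Cux1 in upper layer-like nuclei was higher in frozen tissue by 0.51 ± 0.10 (SE, edgeR adjusted p = 0.0427), with 9.45, 7.29, 7.30 and 7.59 in frozen and 6.30, 6.04 and 5.31 in fresh libraries. Meis2 in Ndst4/Abi3bp nuclei was lower, at -0.64 ± 0.10 (edgeR adjusted p = 0.0163), with 2.05, 1.93, 2.31 and 2.21 in frozen and 2.90, 3.09 and 4.00 in fresh libraries. The groups did not overlap in either, but the Cux1 call was lost without each of 6 libraries in turn and the Meis2 call without each of the 3 preindex libraries.

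Lists of related genes held calls in both directions, beside 15.8% of all genes. Of 50 other homeobox genes tested over all nuclei, 4 rose and 7 fell with the preindex primer. En2, Barhl2 and Barhl1, genes of the midbrain and cerebellum, were at -4.55, -3.34 and -2.40. Of 17 cofactors of homeodomain factors, 5 rose and 1 fell, with Tle4 at 0.41, Ldb2 at 0.36 and Lmo4 at 0.30, and of 30 other regional transcription factors 6 rose and 4 fell, with Ebf2 at -1.75 and Ebf3 at -1.63. Of 13 noncoding neighbours of homeobox genes, 1 rose and 2 fell, Dlx4os at -2.74 and Lhx1os, which lies beside Lhx1, at -0.88.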

How the data were processed

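The authors deposited, for each library, a table of UFI counts, with genes in rows and nuclei in columns. Per the labels' processing notes and the study's methods they used cutadapt, UMI-tools, STAR and featureCounts: poly-A ends were trimmed, reads were aligned in 2 passes, uniquely mapped reads were assigned to whole genes, introns included, and UFIs were counted per gene. Barcodes were kept above a cutoff the authors set by hand. The notes list GRCm38 and mm10 for mouse; the strand setting of the counting is not given in the sources used here. The 5 other samples of the series were not used.

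Nuclei of the 7 brain libraries were clustered with scanpy 1.11.5 and leidenalg 0.10.2 (Python 3.11.15) on 2000 variable genes without the homeobox genes, 40 principal components, 10 neighbours and a resolution of 0.4. No doublet caller was run; an alternative left out the 5% of nuclei with most UFIs. Of 21 pairs of libraries, 7 shared barcodes, at most 10. A cluster was named from at least 3 marker genes at 2 times their level elsewhere, and a mean ± SD is over libraries with at least 10 nuclei of the kind. Levels of single libraries in small kinds can rest on fewer. Neuron-like nuclei are all but the kidney-like, hepatocyte-like and glial clusters and the cluster that joined astrocyte-, vascular- and cerebellar granule-like nuclei. Summed UFIs were tested with edgeR 4.0.16 (R 4.3.3) in 1 model of storage and primer, with an adjusted p under 0.05 as threshold. DESeq2 1.42.0, other scalings and filters, subsets of nuclei and each library left out were alternatives. On simulated data made from these libraries, changes of 1 on the log2 scale were recovered for 72% of changed genes for the primer and 69% for storage over all nuclei, and changes of 2 for 94% and 97%. Of the simulated calls over all nuclei, 6.7% for the primer and 5.7% for storage were false. In neuron-like nuclei 11.4% and 7.8% were false. The changed genes left out those with the lowest counts, so recovery of the scarcest genes was not tested.

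Genes, lists and tests were chosen with earlier results of these data known. In a kind of at least 50 nuclei up to 4 homeobox genes could be named, those with the highest ratio to their median over the other kinds at 0.3 UFIs per 10000 or more. For a test these were up to 10 called genes with the largest change and all Meis, Pbx, Cux, Satb and Zfhx genes. Smaller kinds and pairs of genes were named after their values were seen. Some genes are not reported here, in text or figures, though they count in the totals.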

Additional observations from a re-analysis of the deposited data

Results flagged for a closer look

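Cux2 with the preindex primer was higher in every library in upper layer-like nuclei (6.61 to 7.15, against 5.00 to 6.20 without) and lower in every library in dentate granule-like nuclei (0.0377 to 0.108, against 0.177 to 0.704). The log2 fold changes differed by 2.60, and the difference itself was not tested. In Npsr1/Bmp3 nuclei it was also lower, at 0.0116 to 0.152 against 0.498 to 1.18.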

How the results depend on the processing

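Homeobox genes called for the primer over all nuclei numbered 17. With no filter on low counts they were 26, and with 1 library left out they ran from 5 to 34: 7, 7, 8 and 5 without each frozen library and 34 without the fresh preindex library. The share of all genes called moved with them, from 5.26% without frozen preindex library 2 to 31.3% without the fresh preindex library. For storage over all nuclei the 1 call became 4 with DESeq2, 19 with no filter, and 0 without kidney-like and hepatocyte-like nuclei, without cerebellar nuclei, or, chosen after seeing the data, without vascular nuclei as well. With 1 library left out it ran from 0 to 8. In neuron-like nuclei the 13 primer calls ran from 8 to 22 and the 0 storage calls from 0 to 7, and were 5 for storage with no filter. Within clusters the 26 primer calls in 305 tests ran from 15 to 31, and all genes called from 1.56% to 3.30%. DESeq2 gave 24. The finer clusters gave 18 in 224 tests, or 8.04%, beside 8.52% in the main clusters and 2.28% of all genes at the finer clusters. The 2 storage calls ran from 0 to 2.

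Replicate numbers did not pair the samples: deviations of same-numbered libraries correlated at -0.0127, 0.0421 and -0.0429. With a replicate block the primer calls were 12 over all nuclei, 13 in neuron-like nuclei and 19 within clusters, and the storage calls over all nuclei 0; the cause was not tested.

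Of the primer fold changes named above, these reversed: Zfhx2 over all nuclei was 0.0048 with DESeq2, 0.012 with no filter, 0.065 without kidney-like and hepatocyte-like nuclei and 0.074 without vascular nuclei too, and Zfhx4 in neuron-like nuclei -0.019 with the block. With 1 library left out, Pbx4 ran from -0.00944 to 0.058 and Zfhx2 from -0.077 to 0.0017 over all nuclei, and Zfhx3 from -0.13 to 0.035 and Zfhx4 from -0.18 to 0.091 in neuron-like nuclei.

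Of all 19299 genes tested over all nuclei, 3041 were called for the primer, 1521 higher and 1520 lower; DESeq2 called 1913 higher and 1158 lower, no filter 4787, the block 1731, and 1009 to 5668 passed with 1 library left out. For storage the 40 became 318 with DESeq2, 1937 with no filter, 5 with the block, 13 without cerebellar nuclei and 4 to 840 with 1 library left out. In neuron-like nuclei DESeq2 called 1779 higher and 999 lower for the primer where edgeR called 1914 and 1672, and for storage the 94 became 178, 854 with no filter, 39 with the block and 26 to 911. The 37 genes at 5 times the median of other clusters were 34 to 38 under other clusterings, and of 30 genes the same cluster was highest in 20 to 30. Genes with few UFIs (Otx2, Pou4f1, Nkx2-1, Irx5) are limited by depth, and the fresh preindex group is 1 library, so primer and storage are told apart only through an additive model.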
